A study of Homo sapiens with 3 samples.

Results

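The 8 genes described here encode subunits of the transcription factor AP-1: FOS, FOSB, FOSL1 and FOSL2, JUN, JUNB and JUND, and ATF3. They were chosen by name, and every peak of the RBPJ and L3MBTL3 lists with its summit within 50 kb of a transcription start site (TSS) of one of them was taken as near it. This gave 26 of 2926 RBPJ peaks and 1 of 444 L3MBTL3 peaks, around 8 of 19748 protein-coding genes. The peaks come from chromatin immunoprecipitation followed by sequencing (ChIP-seq) in MDA-MB-231, a mesenchymal-like human breast cancer cell line without hormone receptors, grown in medium with fetal bovine serum. The labels name no treatment, genotype or time point. One library was made with the RBPJ antibody and 1 with the L3MBTL3 antibody, and an input DNA library was sequenced but not analysed here. The labels give 30 to 40 M (megareads) aligned for each library. With 1 library for each antibody there is no replicate error, so values below describe these libraries and no test was made. Peak lists carry no expression values, so the cell line was not checked against its marker genes.

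AP-1 is a dimer of basic leucine zipper proteins. FOS-family proteins need a JUN-family partner to bind DNA, JUN-family proteins can also pair with each other, and ATF3 pairs with JUN proteins or with itself. The dimers bind TGACTCA or TGAGTCA (the AP-1 word below), and dimers with ATF or CREB proteins bind the related cyclic AMP response element (CRE), TGACGTCA. Several of these genes are immediate early genes, switched on within minutes by serum and growth factors through the serum response element and CRE-like sequences of their promoters. RBPJ (also called CBF1 or CSL) is the DNA-binding protein of the Notch pathway. It activates genes when bound by the Notch intracellular domain and represses them with corepressors. L3MBTL3 is a methyl-lysine reader, and the series asks where it lies on chromatin together with RBPJ.

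All 8 genes had an RBPJ peak within 50 kb of a TSS, as had 21.8% of all protein-coding genes. A peak within 1 kb, called a promoter peak here, was present at 6 of the 8 genes (FOS, FOSL1, FOSL2, JUNB, JUND and ATF3), against 8.9% of all genes, and no further member had a peak within 10 kb (11.3% of all genes). All 8 members have at least 1 CpG-rich TSS (observed over expected CpG ratio above 0.6 in 1 kb), as have 13832 of the 19748 genes. Of those 13832 genes 12.5% had a promoter peak. FOSB and JUN had distal peaks only. Of the 26 peaks, 10 were promoter peaks of a member, 7 lay within 1 kb of the TSS of another gene, and 9 were away from any protein-coding TSS. In the whole list of 2926 peaks, 1876 lay within 1 kb of a protein-coding TSS and 1050 did not, a similar split. These counts are descriptions, since the genes were chosen with earlier results of these data known.

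The sequences below are from some of the peaks whose searched words, or lack of them, are described further on. They are from hg19, written 5′ to 3′ on the strand of the named gene. Capitals mark the serum response element and, on either strand, TGACG (the CRE stem) at FOS, the CRE and the GC box GGGGCGGGG in the middle JUND peak, and the CRE stem and GC box in the JUND peak nearest the start and at FOSL1. At FOSL2 they mark the CRE stem and the AP-1 word, and at ATF3 the NFY word, a CCAAT box with set flanking bases. CCAAT with other flanking bases is not marked. In the FOSB and distal FOSL1 peaks capitals mark the AP-1 word, the CRE-like word TGACATCA, the RBPJ core TGGGAA and GC boxes. The most upstream JUND peak and the JUN peak held none of the words and have no capitals.
FOS promoter, 100 bp to either side of the summit (chr14:75745059-75745259, plus strand): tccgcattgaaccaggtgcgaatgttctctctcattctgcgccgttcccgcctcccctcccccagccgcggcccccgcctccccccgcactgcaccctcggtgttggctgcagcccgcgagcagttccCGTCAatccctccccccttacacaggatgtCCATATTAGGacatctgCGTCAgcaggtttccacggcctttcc
JUND most upstream promoter peak (chr19:18392854-18392909, minus strand): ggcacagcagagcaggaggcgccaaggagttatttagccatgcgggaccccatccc
JUND middle promoter peak (chr19:18392611-18392726, minus strand): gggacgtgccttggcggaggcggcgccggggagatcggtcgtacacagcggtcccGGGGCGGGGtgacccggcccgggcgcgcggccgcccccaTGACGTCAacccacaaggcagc
JUND promoter peak nearest the start (chr19:18392495-18392549, minus strand): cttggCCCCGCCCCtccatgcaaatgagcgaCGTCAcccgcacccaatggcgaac
FOSL1 upstream promoter peak (chr11:65668161-65668222, minus strand): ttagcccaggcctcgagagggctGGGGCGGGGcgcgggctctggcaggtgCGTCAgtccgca
FOSL2 promoter peak, the part before the start site (chr2:28615526-28615668, plus strand): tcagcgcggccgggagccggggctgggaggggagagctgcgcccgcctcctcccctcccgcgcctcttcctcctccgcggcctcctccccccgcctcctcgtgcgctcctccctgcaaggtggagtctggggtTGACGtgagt
FOSL2 AP-1 word at the start site (chr2:28615719-28615745, plus strand): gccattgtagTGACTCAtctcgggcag
ATF3 promoter peak (chr1:212781709-212781800, plus strand): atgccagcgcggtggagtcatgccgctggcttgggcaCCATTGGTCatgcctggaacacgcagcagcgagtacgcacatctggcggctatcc
FOSB upstream peak with the AP-1 word (chr19:45959033-45959258, plus strand): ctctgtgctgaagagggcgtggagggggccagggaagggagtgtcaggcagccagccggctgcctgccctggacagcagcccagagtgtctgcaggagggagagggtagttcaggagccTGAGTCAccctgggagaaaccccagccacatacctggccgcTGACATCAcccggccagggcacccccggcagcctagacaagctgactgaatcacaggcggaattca
FOSB upstream peak with the RBPJ core (chr19:45947621-45947745, plus strand): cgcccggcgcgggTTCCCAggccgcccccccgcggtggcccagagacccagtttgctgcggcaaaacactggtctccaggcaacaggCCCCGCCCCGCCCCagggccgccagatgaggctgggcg
FOSL1 distal peak with the AP-1 word (chr11:65683355-65683443, minus strand): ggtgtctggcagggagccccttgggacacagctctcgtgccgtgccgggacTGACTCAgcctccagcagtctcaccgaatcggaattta
JUN distal peak (chr1:59282038-59282156, minus strand): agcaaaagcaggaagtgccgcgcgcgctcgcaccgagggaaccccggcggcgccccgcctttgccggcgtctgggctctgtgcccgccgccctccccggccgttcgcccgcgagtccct

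The fold of a peak is the enrichment at its summit over the local background of the peak caller, as the authors deposited it, and q is the false discovery rate the caller gave. At FOS, the prototype immediate early gene and a partner that binds DNA only with JUN proteins, the list held a single RBPJ peak. It was 96 bp wide with its summit 370 bp upstream of a TSS, outside any annotated protein-coding or long non-coding RNA transcript. The peak had a fold of 4.93 and a -log10 q of 2.48. In the whole list 43.0% of peaks had a lower fold. No searched word lay inside this peak. A serum response element, the site through which serum response factor switches on FOS, lay 62 bp from the summit and 308 bp from the TSS, beyond the peak's edge on the side of the gene. Such an element was within 100 bp of the summit in 0.615% of all RBPJ peaks. It was within 100 bp of the first TSS in 0.785% of genes, a window that does not reach the FOS element. A copy of the CRE stem lay still nearer the gene, 293 bp from the TSS, and another 340 bp from it, both outside the peak. This short word was within 100 bp of the summit in 21.3% of all RBPJ peaks and in 8 of the 26 near members. No other protein-coding gene has a TSS within 50 kb of FOS.

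FOSB, a FOS paralog induced with similar speed, had no promoter peak. Its 2 RBPJ peaks lay 23.6 and 12.1 kb upstream, both in an intron of ERCC1, which encodes a DNA repair endonuclease subunit, and both closer to a TSS of ERCC1 (6315 and 5169 bp) than to FOSB. The farther peak (chr19:45947621-45947745) had a fold of 7.16 and a -log10 q of 8.71, the highest of the 26 peaks, and 94.8% of the list had a lower fold. It held the RBPJ core TGGGAA 32 bp from its summit, in the reverse direction, and 2 overlapping GC boxes. It was the only 1 of the 26 peaks with the core inside it. The nearer peak (chr19:45959033-45959258) had a fold of 4.37 and a -log10 q of 3.13. It held the AP-1 word TGAGTCA centred 3 bp from the summit and TGACATCA, which differs from the CRE at a single base and was inside 0.547% of all RBPJ peaks, 44 bp from it.

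FOSL1 encodes FRA-1, a FOS-family protein known for high levels and a role in invasion in mesenchymal-like breast cancer lines. With 10 RBPJ peaks within 50 kb it had the most of the 8 genes, but 9 other protein-coding genes have a TSS within the same distance. Only 11 genes (0.0557%) had 10 or more RBPJ summits within 50 kb, and 5 of these were FOSL1 and neighbours of it that share the same peaks. The 2 FOSL1 promoter peaks had summits 5 and 143 bp upstream of a TSS, with folds of 5.58 and 4.84 and -log10 q of 4.40 and 2.71. The first spanned the start site (chr11:65667888-65668088) and held none of the words. The second held a GC box 8 bp from its summit and the CRE stem 17 bp from it. A further peak that had FOSL1 as the nearest gene lay 2784 bp upstream, with a fold of 3.62 and a -log10 q of 1.56, and 3.25% of the list had a lower fold.

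The other 7 peaks around FOSL1 were nearer to other genes. The strongest pair lay 18.8 and 18.6 kb upstream of FOSL1, with folds of 6.82 and 5.78 and -log10 q of 7.69 and 5.11. Their summits were 6 bp from the TSS of DRAP1, which encodes a general transcription repressor, and 72 bp from that of C11orf68. The peaks at FIBP and CCDC85B, 11.8 and 9.54 kb downstream of the FOSL1 start, had folds of 5.27 and 4.68. Those at MUS81 and CFL1, 39.8 and 42.1 kb downstream, had folds of 4.08 and 4.18. The remaining peak (chr11:65683355-65683443), 15.3 kb upstream of FOSL1 and 2469 bp from C11orf68, lay between genes and had a fold of 4.31. It held the AP-1 word 27 bp from its summit, and a second copy lay 57 bp from the summit, outside the peak.

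FOSL2 encodes FRA-2, another FOS-family protein. Its promoter peak (chr2:28615526-28615899) was 374 bp wide, the widest of the 26, with its summit 14 bp upstream of a TSS. This summit lay downstream of the first FOSL2 TSS, in an intron of FOSL2. The fold of 6.36 was the highest among the 10 promoter peaks of the members, above that of 87.9% of the list, and the -log10 q was 4.996. The AP-1 word TGACTCA lay 21 bp from the summit, 7 bp downstream of a TSS, and the CRE stem 8 bp upstream of the first TSS. This was the only promoter peak of a member that held the AP-1 word. The other FOSL2 peak lay between genes 33.1 kb upstream, with a fold of 4.46, a -log10 q of 2.27 and none of the words.

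**Figure D1:**
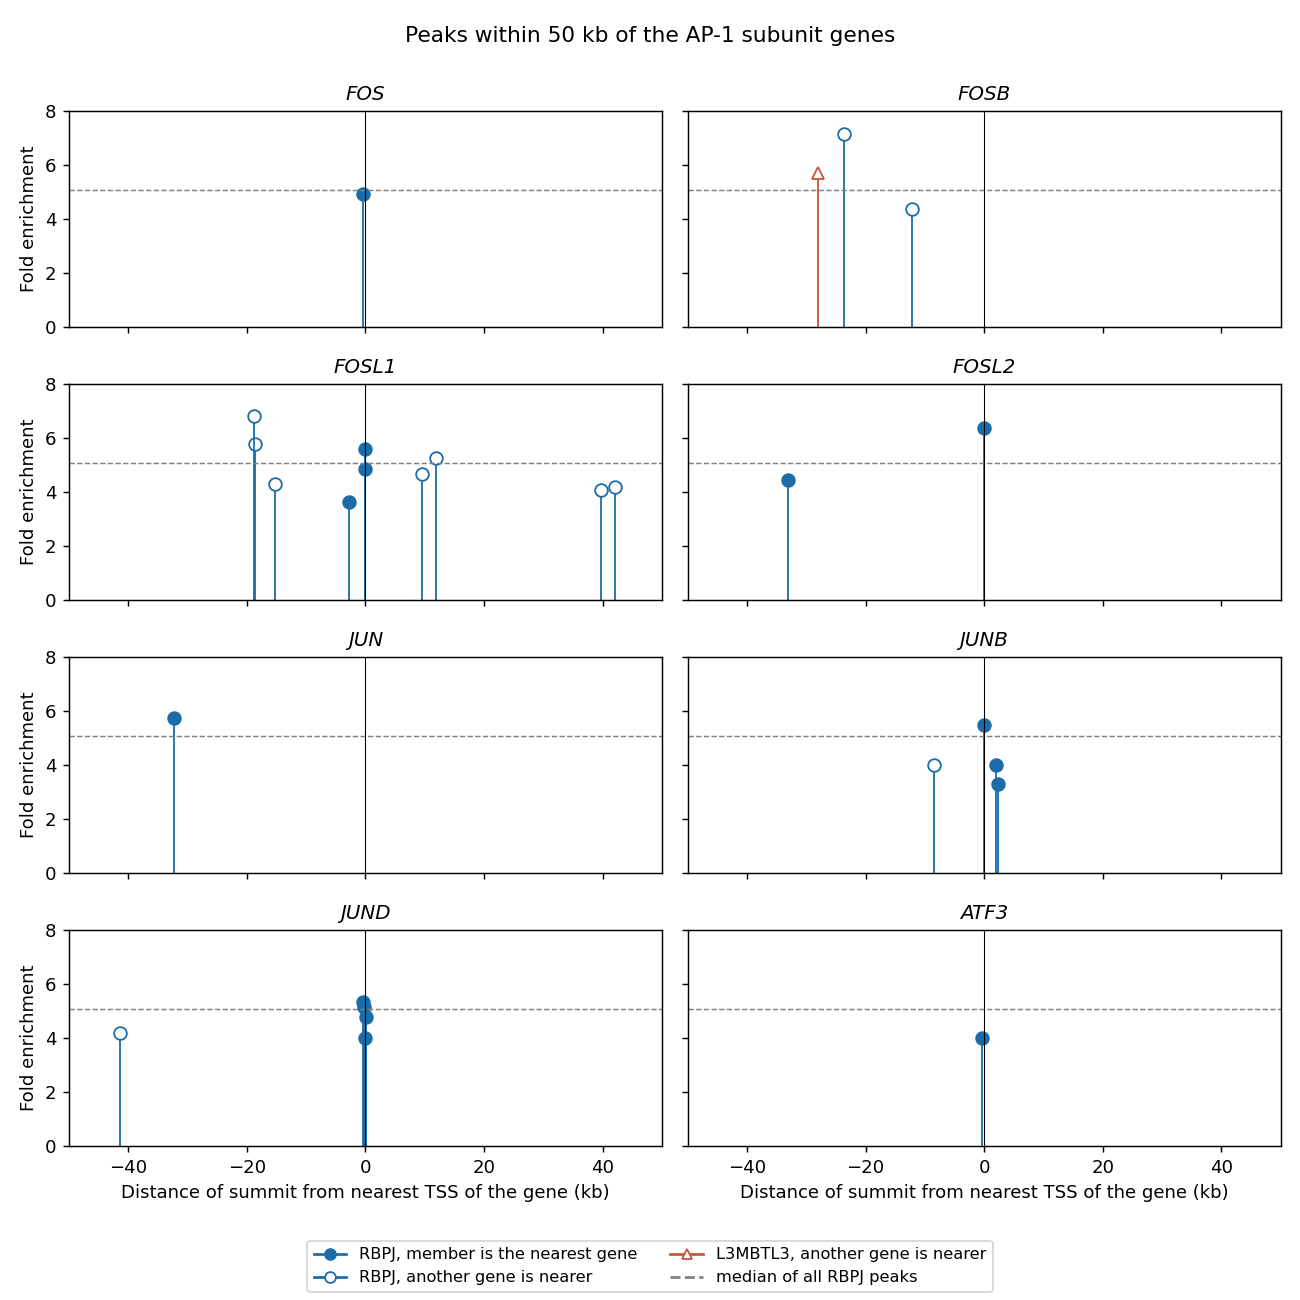
Distance of each peak summit from the nearest TSS of the gene (x axis, kb, negative upstream) and fold enrichment of the peak (y axis) for the 8 AP-1 subunit genes. Circles are RBPJ peaks, the triangle is the L3MBTL3 peak, open symbols are peaks with another gene nearer, and the dashed line is the median fold of all RBPJ peaks (5.08). L3MBTL3 folds come from another library and are not comparable in height with RBPJ folds. FOSL1 has 10 peaks, 7 of them nearer to other genes, while FOSB and JUN have none within 1 kb.

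JUN, the founding JUN-family gene, known to activate its own promoter through an AP-1-like site, had no RBPJ promoter peak. Its 1 peak (chr1:59282038-59282156) lay 32.4 kb upstream in an intron of the long non-coding RNA LINC01135, with JUN as the nearest protein-coding gene. The fold was 5.75 and the -log10 q 4.57, and 74.0% of the list had a lower fold. The peak held none of the 14 words searched, and none of the RBPJ, AP-1 and CRE words lay within 100 bp of its summit. GC content was 76.5%, against a median of 59.2% in the 1050 RBPJ peaks away from any protein-coding TSS.

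JUNB, a JUN-family gene induced by growth factors and cytokines, had 4 RBPJ peaks. The promoter peak (chr19:12902255-12902449) spanned the start site, with its summit 5 bp downstream of the single TSS, in the UTR. The fold was 5.49 and the -log10 q 5.74, the highest -log10 q of the 10 promoter peaks and the only 1 of at least 5, a mark passed by 21.9% of the list. In that peak none of the 14 words was found. Peaks 2005 and 2368 bp downstream of the TSS, beyond the end of the gene and between genes, had folds of 3.995 and 3.29 and -log10 q of 2.03 and 1.82. The fourth peak, 8525 bp upstream of JUNB and 4504 bp from a TSS of HOOK2, had a fold of 3.995. The RBPJ core was found 55 and 90 bp from its summit, outside the peak.

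JUND, the JUN-family gene that is expressed steadily in most cells, had 4 promoter peaks within 662 bp. Of all genes 12 (0.0608%), JUND included, had 4 or more such peaks. FOSL1 and JUND had 2 or more, as had 1.65% of genes. These shares count peaks, not regions. With peaks less than 500 bp apart merged, the 4 JUND promoter peaks made 1 region, as did the 2 FOSL1 promoter peaks. The JUND summits lay 445, 278 and 82 bp upstream of a TSS and 157 bp downstream of it, the last in the coding exon. In that order the folds were 5.33, 5.17, 3.995 and 4.80, and the -log10 q values were 4.88, 3.51, 2.03 and 3.02. All 4 were narrow, at 56, 116, 55 and 65 bp. The middle upstream peak held the whole CRE, TGACGTCA, at chr19:18392625-18392632, 196 bp upstream of the TSS and 82 bp from its summit. It was the 1 peak of the 26 with this word. The peak nearest the start held the CRE stem 2 bp from its summit, and both held a GC box. The fifth JUND peak lay 41.5 kb upstream, 11 bp from the TSS of LSM4, an RNA-processing gene, with a fold of 4.18 and none of the words.

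ATF3, a stress-induced member of the ATF family that forms dimers with JUN proteins, had 1 RBPJ peak (chr1:212781709-212781800). The summit was 390 bp upstream of a TSS, in an intron of longer ATF3 transcripts. The fold of 3.995 and the -log10 q of 2.03 were tied for the lowest among the 10 promoter peaks of the members. The peak held the NFY word, present inside 3.86% of all RBPJ peaks, and no RBPJ, AP-1 or CRE word. The same pair of fold and q was given to 53 peaks of the list, 4 of them near members: this ATF3 peak, the JUND peak 82 bp upstream, and the JUNB peaks 8525 bp upstream and 2005 bp downstream. Ties of this kind at the weak end mean that the order of these 4 peaks cannot be read from the list.

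**Figure D2:**
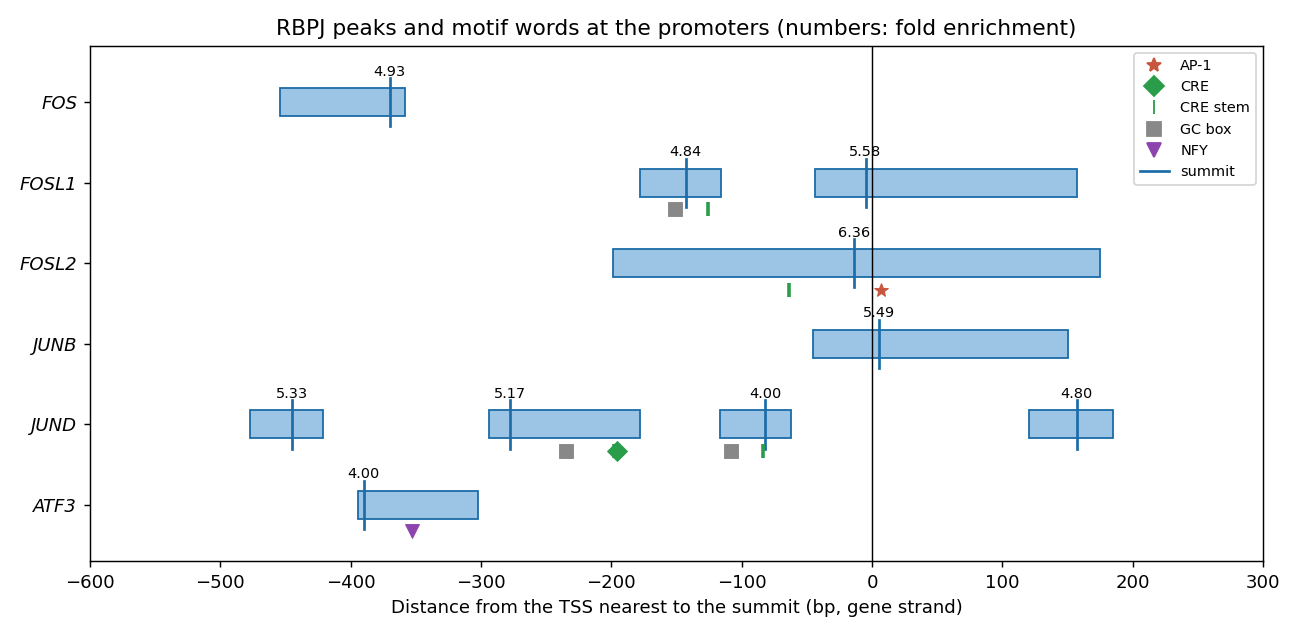
RBPJ promoter peaks of the 6 members that have one, as bars along the distance from the TSS nearest to the summit (x axis, bp, on the gene's strand). Dark lines are summits, the number above each is the fold enrichment, and symbols below mark words inside the peaks. JUND has 4 separate peaks, the CRE is found at JUND alone, and the AP-1 word at FOSL2 alone.

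In strength the promoter peaks of the members lay in the middle of the list. The median fold was 5.05 in the 10 promoter peaks of members (quartiles 4.81 and 5.45, range 3.995 to 6.36) and 5.08 in all 1876 promoter peaks (quartiles 4.47 and 5.70). In the 9 peaks away from any protein-coding TSS it was 4.31 (range 3.29 to 7.16), against 5.14 in all 1050 such peaks. Over the 26 peaks the median was 4.74, against 5.08 in the list, and 10 of the 26 were above the list's median. A -log10 q of at least 5 was reached by 4 of the 26 peaks, against 21.9% of the list: the farther FOSB peak, the pair at C11orf68 and DRAP1, and the JUNB promoter peak. Median width was 94 bp in the 26 peaks and in the list, and median GC content was 70.0% and 68.8%. The peaks next beyond the 50 kb limit were at TRIR, 56.8 kb upstream of JUNB (fold 4.56), and 82.2 kb downstream of the FOSL1 start (fold 6.58), while the farthest inside it were the CFL1 peak at 42.1 kb and the LSM4 peak at 41.5 kb.

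**Figure D3:**
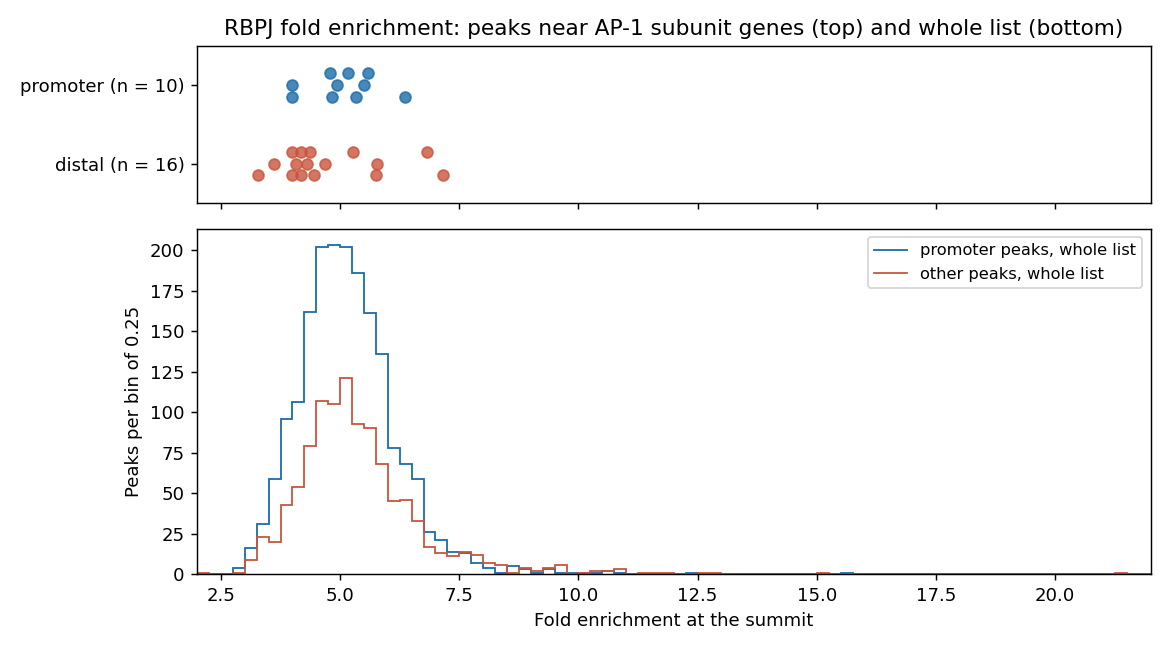
RBPJ fold enrichment at the summit (x axis) of the 10 promoter and 16 distal peaks near the AP-1 subunit genes, 1 point each with vertical spread for legibility only (top), and the number of peaks of the whole list per bin of 0.25 in fold (bottom). Of the 16 distal peaks, 7 lie at promoters of other genes, and in the lower plot such peaks count as promoter peaks. The members' peaks lie between 3.29 and 7.16, and the list reaches 21.3.

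The high-affinity RBPJ word, CGTGGGAA or TGTGGGAA, was absent from all 26 peaks, and from the 100 bp to either side of their summits (8.51% of the list). It lay inside 7.01% of all RBPJ peaks (95% Wilson interval 6.14 to 7.99), in 4.21% of promoter peaks and in 12.0% of the others. A count of 0 of 26 allows a share of up to 11.5%, so a difference from the list was not detectable with this many peaks. The core TGGGAA was in 1 of 26 peaks and in 22.0% of the list, and within 100 bp of the summit in 4 of 26 and in 29.5% of the list. The 4 peaks were the farther FOSB peak, the CFL1 peak, the peak 8525 bp upstream of JUNB, and that of ATF3. Among the 17 peaks at any promoter 0 held the core inside, against 15.1% of all promoter peaks. Among the 9 others 1 did, against 34.4%.

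The AP-1 word, bound by the proteins these genes encode, was inside 3 of the 26 peaks, against 8.24% of the list, and within 100 bp of the same 3 summits, against 11.2%. These were the FOSL2 promoter peak and the distal peaks near FOSB and FOSL1, in which the word was 3 to 27 bp from the summit. Among the 17 peaks at any promoter 1 held it, against 2.67% of all promoter peaks, and among the 9 others 2 did, against 18.2%. The CRE was in 1 of 26 and in 1.13% of the list, and its stem TGACG, which the CRE contains, in 4 of 26 and in 13.7%. The CRE-like word TGACGTTT was in 0 of 26 and in 0.171% of the list. Around the first TSS of each protein-coding gene, a 201-base window held the AP-1 word in 2.39%, the CRE in 1.9% and the RBPJ word in 1.49% of cases. The CRE stem was in 21.6% of these windows. GC boxes were in 6 of 26 peaks and in 13.5% of the list. The words of TEAD factors (GGAATG), the E-box (CACGTG), RUNX (TGTGGTT) and ETS (ACCGGAAGT) were inside 0 of 26, against 8.99%, 4.75%, 2.32% and 0.615% of the list. All of these shares lie below the 11.5% that a count of 0 of 26 allows, so no difference was detectable. A word is a match of letters and was not shown to be bound.

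**Figure D4:**
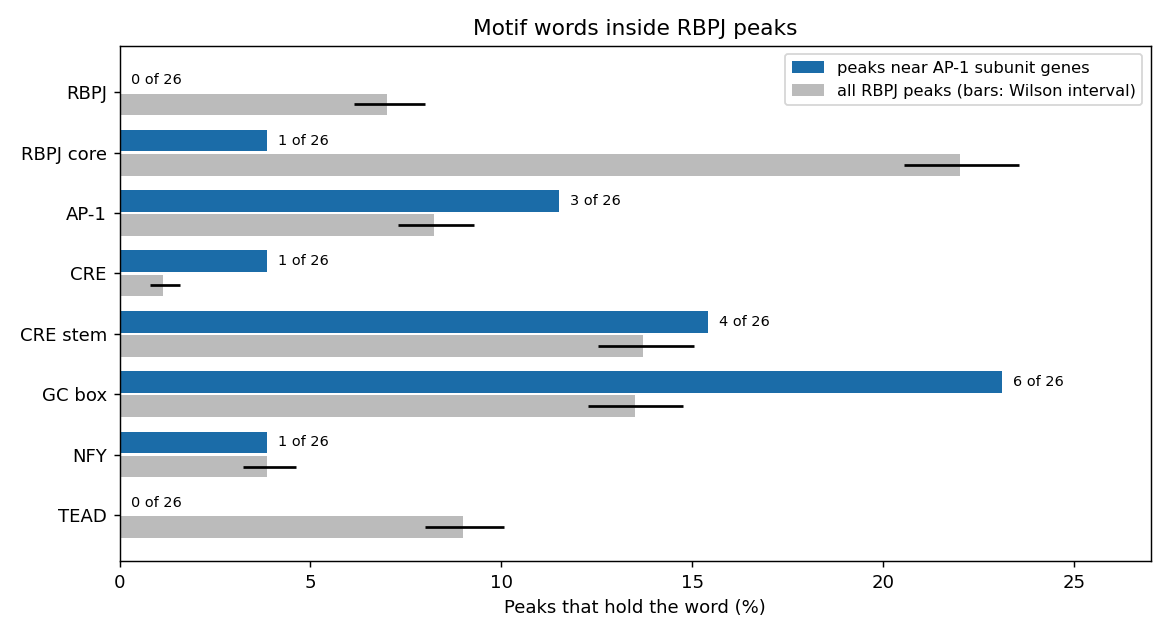
Percent of RBPJ peaks that hold each motif word inside the peak (x axis), for the 26 peaks near the AP-1 subunit genes (dark bars, with counts) and all 2926 peaks (light bars, with 95% Wilson intervals that cover counting error only). The RBPJ word is in 0 of the 26, the AP-1 word in 3 and the CRE in 1.

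L3MBTL3 was found near 1 of the 8 genes within 50 kb, against 2.89% of all genes, and near none within 10 kb (1.58% of genes) or 1 kb (1.37%). That peak (chr19:45943130-45943209) lay 28.1 kb upstream of FOSB in an intron of ERCC1, 10704 bp from the nearest TSS, also of ERCC1, and had a fold of 5.71 and a -log10 q of 4.30. In the L3MBTL3 list 53.8% of peaks had a lower fold. Its summit was 4.50 kb from that of the farther FOSB RBPJ peak, and the AP-1 word was 86 bp from it, outside the peak. None of the 26 RBPJ peaks overlapped an L3MBTL3 peak, and none had an L3MBTL3 summit within 1 kb. The same shares over all RBPJ peaks were not computed, so this absence cannot be called particular to these genes. For the other genes the nearest L3MBTL3 summit was 163 kb away (JUND), 205 kb (JUNB), 1050 kb (ATF3), 3350 kb (FOSL2), 4377 kb (JUN), 11426 kb (FOS) and 17665 kb (FOSL1). The L3MBTL3 list is short, so the absence of a peak does not show that the protein was absent.

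3 further lists of AP-1 biology were counted in the same way. Of 14 other leucine zipper partners of AP-1, 5 had an RBPJ peak within 50 kb (35.7%, against 21.8% of all genes) and 2 within 1 kb (MAFA and NRL; 14.3%, against 8.9%). The highest fold was at MAFK, a small MAF protein, with 7.18 and a -log10 q of 11.5, 1236 bp upstream of a TSS. BATF2 (6.23, nearest to ARL2), MAFF (5.08, nearest to TMEM184B), NRL (5.08, nearest to PCK2) and MAFA (4.87) followed. ATF2, ATF4, ATF7, BATF, BATF3 and JDP2 were among the 9 partners with no RBPJ peak.

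Of 15 kinases, transcription factors and other proteins that induce or modify AP-1, 6 had an RBPJ peak within 50 kb (40.0%, against 21.8% of all genes) and 4 within 1 kb (26.7%, against 8.9%). Those 4 were FBXW7, MAP2K7, MAPK14 and SRF. FBXW7, part of a ubiquitin ligase that degrades JUN, had a fold of 6.30 at 228 bp upstream of a TSS. MAP2K4, a kinase upstream of JNK, had 5.99 at 23.4 kb, nearest to ZNF18, and MAP2K7, another such kinase, had 5.08 at 15.3 kb, nearest to LRRC8E. MAP2K7 also had 1 promoter peak. MEF2D had 4.88 at 1805 bp and MAPK14, the p38 kinase, 4.69 at 202 bp. SRF, which encodes serum response factor and was sixth by fold, was named after its values were seen: it had 2 promoter peaks, the stronger with a fold of 4.04. The JNK genes MAPK8, MAPK9 and MAPK10 had none.

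Of 15 genes known as AP-1 targets, 5 had an RBPJ peak within 50 kb (33.3%, against 21.8% of all genes) and 2 within 1 kb (PLAU and HMGA1; 13.3%, against 8.9%). PLAUR, which encodes the urokinase receptor, had the highest fold of the 3 lists, 9.61 with a -log10 q of 21.003, at 21.4 kb upstream with PLAUR as the nearest gene. PLAU, which encodes urokinase itself, had 6.60 at 21.3 kb, nearest to CAMK2G. EZR (5.44 at 34.1 kb), HMGA1 (5.34 at 8275 bp, nearest to SMIM29) and MMP9 (4.67 at 13.2 kb, nearest to SLC12A5) followed. MMP1, MMP3, VEGFA, IL6 and CXCL8 were among the 10 targets without an RBPJ peak. None of the 44 genes of these lists had an L3MBTL3 summit within 50 kb, and with 2.89% of all genes having one, few would in a list of this length.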

How the data were processed

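ChIP-seq libraries of RBPJ and L3MBTL3 from MDA-MB-231 cells were used as the peak lists that the authors deposited, 1 library for each antibody. Per the labels' protocols, reads of 50 cycles from one end were adaptor-trimmed by Trimmomatic, then mapped with BWA 0.7.15 on hg19. The submitters' processing notes name MACS2 as the peak caller, without a version, and the sources used here state neither cutoff nor control. The deposited columns were a fold (the ratio of signal at the summit to the background that MACS2 models nearby), the -log10 of the p-value and q-value, and a score, which was not used further. Read counts behind a peak are unknown, so the error of a fold is unknown, and folds were compared within a list only.

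Coordinates are 1-based in hg19. Genes and TSS are those of protein-coding transcripts in GENCODE 44 lifted to that build, on chromosomes with peaks. Whether a summit lay inside or between genes was read from protein-coding and long non-coding RNA transcripts only. Python 3.11.15 with pandas 2.3.3, scipy 1.17.1 and pysam 0.24.0 was used. Peaks within 50 kb of a member's TSS were kept, and 14 words were sought on either strand inside peaks and within 100 bp of summits. The NFY word is CCAAT with A or G at both bases before it, and C or G, then A or G, after it. The word search and distances were tested on simulated data. Named genes are all members, and up to 5 genes with the highest RBPJ fold from each of 3 other lists. SRF and the genes of these lists named as having no RBPJ peak fall outside this rule and were chosen after their values were seen. The members and lists were chosen with earlier results of these data known. Alternatives are described in the closing section.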

Additional observations from a re-analysis of the deposited data

How the results depend on the processing

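Counts were recomputed with other distances, thresholds and word windows. Values that differed by more than 1.5 times are given, with some that did not. The number of members with an RBPJ peak (8) was 6 at 10 kb and at 1 kb, and 3 with a -log10 q of at least 5. The number of RBPJ peaks (26) was 15 at 10 kb, 10 at 1 kb, 4 with that q, 10 with a fold of at least the list median, and 15 when the nearest TSS had to be that of a member, which left FOSB without a peak. Members with a promoter peak (6) numbered 6 with promoters of 500 bp and 2 kb and with TSS of all transcripts, but only JUNB was left (1) with that q. The L3MBTL3 count (1) was 0 at 10 kb, at 1 kb, with that q, with a member as the nearest gene, with overlap, and within 1 kb of an RBPJ summit. Peaks with the AP-1 word (3) numbered 5 within 250 bp of the summit and 0 with that q. Those with the CRE (1) numbered 2 within 250 bp, 0 with that q and 4 with its stem. Those with the RBPJ word (0) numbered 1 within 250 bp and 1 with the core. The share of all genes with a peak at that q is not given here. Nor is the share of all peaks with a word within 250 bp. The members' counts at these settings therefore cannot be set against the whole list. The median fold (4.74) was 4.80 within 10 kb and 6.30 with that q. Chosen after seeing the data, merging peaks less than 500 bp apart gave 20 regions, and leaving out FOSL1 gave 16 peaks, 2 with the AP-1 word. No paired analysis was possible because each antibody had 1 library and no test was made.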
